A study of Ericerus pela with 2 samples.

Results

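Transcripts of the proteasome were compared between male prepupae and male pupae of the Chinese white wax scale insect, Ericerus pela. The members were the unigenes, or assembled transcript fragments, whose best protein database match contained the word proteasome or the phrase 26S protease, whatever the case of the letters. This found 69 of 120710 unigenes: 27 of the 20S core, 37 of the 19S regulatory particle (12 ATPase and 25 non-ATPase) and 5 activators or assembly factors. One library came from prepupae and 1 from pupae, both labelled wild type, male, whole body and age 90 with no unit, and no treatment is named. The submitters' design note names the retina in place of the whole body, and it states that there was no replicate. How many insects were pooled is not given in the sources used here.

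The proteasome degrades proteins that carry a ubiquitin tag. Its 20S core is a barrel: outer rings of alpha subunits gate the entrance, and inner rings of beta subunits hold the cutting sites. The 19S particle caps the barrel. A ring of ATPases unfolds the substrate, while non-ATPase subunits receive it and take off the ubiquitin. In moths, this pathway is known for its part in the breakdown of larval muscles at metamorphosis.

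The libraries held 2182108 uniquely assigned reads in prepupae and 1840877 in pupae. Levels are given as RPKM, reads scaled to the length of the unigene and the size of the library, and members are compared with each other only on that scale. A unigene was called lower or higher in pupae where its log2 ratio of RPKM, with a pseudocount of 1 added to each, was at least 1 in size, a 2-fold difference. Unigenes whose RPKM averaged under 1 over both libraries were left out. Each stage is a single library, so nothing could be tested across samples; the 95% intervals below are exact binomial intervals that cover counting error only. Folds of single members and of sums compare reads scaled to the library totals. Over the 113976 unigenes that passed the filter the median log2 ratio was −0.49, so the whole scale leaned towards lower values in pupae. All 8 lists of tissue markers had reads in both libraries. Among them were fat body genes (529 and 389 reads in prepupae and pupae) and gut genes, taken as matches to trypsin or cathepsin (1284 and 892). Summed reads of eye markers were 5.44-fold higher in pupae, of cuticle markers 9.46-fold and of muscle markers 2.16-fold, and those of haemocyte and haemolymph markers were 10.5-fold lower. Within these lists calls went both ways. Of 38 eye unigenes 16 were higher and 6 lower, of 17 cuticle unigenes 12 and 1, and of 21 muscle unigenes 7 and 3. Of 11 haemocyte and haemolymph unigenes 1 was higher and 9 lower. Among all filtered unigenes 23.0% were higher and 39.4% lower. The part of this shift between tissues in the results was not tested. In whole bodies, fewer cells of a type and less RNA per cell cannot be told apart.

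The proteasome as a whole took a smaller share of reads in pupae than in prepupae. Its 69 unigenes held 4658 reads in prepupae, 0.213% of the library (0.207 to 0.220), and 2067 in pupae, 0.112% (0.107 to 0.117). This was 1.90-fold lower in pupae (95% counting interval 1.80 to 2.003). Of the 61 members that passed the filter, 33 were called lower, none higher and 28 neither. Among all filtered unigenes 39.4% were called lower and 23.0% higher. The members' median log2 ratio was −1.03, against −0.49 over all unigenes. Since most members were well covered, those with at least 50 reads in both libraries together are the closer comparison: 27 of 52 were lower and none higher, with a median of −1.01. Over the 12917 unigenes of that depth with a database match, 40.1% were lower and 15.4% higher, and the median was −0.65. The size of the difference depended on the scaling. With trimmed mean (TMM) scaling, which gives little weight to the most unequal unigenes, the sum was 1.44-fold lower, with 19 of 60 members called lower and 1 higher. After centring on the median unigene it was 1.35-fold lower, with 15 of 61 called lower and 1 higher. Of all unigenes 33.4% were then lower and 28.2% higher with TMM scaling, and 31.3% and 30.0% after centring. Under either scaling both lower and higher calls were thus rarer among the members than among all unigenes. Either scaling multiplies the sums of all classes by the same factor, so their order stays as it is.

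**Figure D1:**
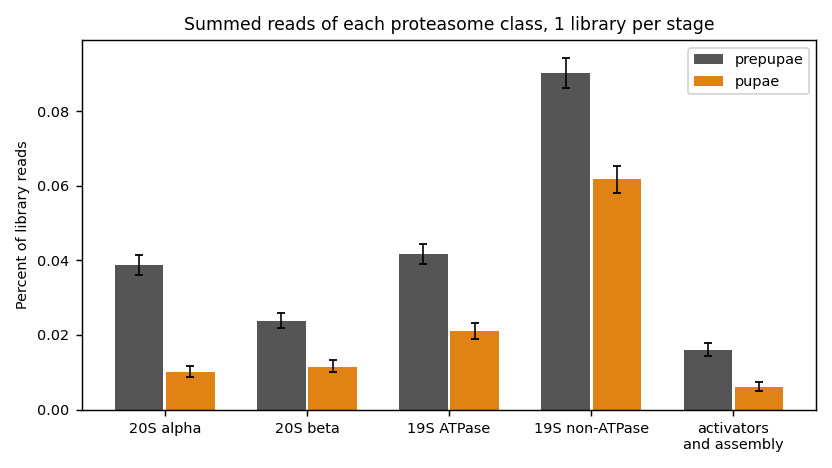
Percent of all uniquely assigned library reads (y axis) held by each class of proteasome unigenes (x axis), with 1 grey bar for the prepupal and 1 orange bar for the pupal library; error bars are exact 95% binomial intervals and cover counting error only. The alpha subunits show the steepest difference, from 0.0388% to 0.0102%, and the non-ATPase subunits the shallowest, from 0.0902% to 0.0617%.

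Depth was not even across the members. Of all 120710 unigenes, 106752 had reads in the prepupal library and 94524 in the pupal library, so absence from pupae was generally more common. Reads in both libraries were found for 59 of the 69 members, each with at least 10 reads in total. The other 10 had 1 read (8 unigenes) or 2 reads (2 unigenes) in prepupae and 0 in pupae, too few for a fold. For 7 of these 10 the best match was a protein of an animal or protist that is not an insect, such as salmon, trout, panda, acorn worm or the amoeba Naegleria gruberi. Among the 59 deeper members this held for 4. Of the 10, 2 passed the filter through their prepupal reads alone and were counted as lower. Values of single members below are of the 59 deeper ones, of which 31 were called lower and 28 neither.

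Alpha subunits of the 20S core were the members furthest below their prepupal level. Their 16 unigenes summed to 846 reads in the prepupal and 187 in the pupal library, 3.82-fold lower (3.25 to 4.50). The 10 beta unigenes held 520 and 212 reads, 2.07-fold lower (1.76 to 2.44). The counting intervals of the 2 sums did not overlap, but they leave out the spread among subunits. Among unigenes with at least 10 reads, log2 ratios ranged from −3.46 to 0.64 for alpha and from −1.90 to −0.45 for beta, and these ranges overlap. Among members with at least 10 reads, the median of the 11 alpha unigenes went from 170 RPKM in prepupae to 33.1 in pupae, and that of the 7 beta unigenes from 138 to 83.6. The alpha median was thus the higher one in prepupae and the lower one in pupae.

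The largest fold belonged to alpha 6, a structural subunit of the outer ring. Unigene111449_FOB had 58 reads in prepupae and 4 in pupae (102.6 and 8.39 RPKM), 12.2-fold lower (4.53 to 46.4). Unigene115631_FOB, matched to an alpha 8-like protein of an acorn worm, had 124 and 16 reads (209.7 and 32.1 RPKM), 6.54-fold lower (3.87 to 11.8). Alpha 8 is a relative of alpha 7 known from vertebrates. The only unigene named alpha 7 had 1 read in prepupae and 0 in pupae. Which of these subunits Unigene115631_FOB encodes was not tested. The zeta subunit, which is alpha 5, had 107 and 14 reads in Unigene98089_FOB, 6.45-fold lower (3.68 to 12.2). These wide intervals overlap, and the order within the ring is not resolved.

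Alpha 1 had 150 and 28 reads in Unigene137731_FOB, 4.52-fold lower (3.004 to 7.03). Alpha 3, whose tail forms a main part of the gate in yeast, had 30 and 5 reads, 5.06-fold lower (1.95 to 16.7). An alpha subunit with no number had 69 and 10 reads, 5.82-fold lower (2.98 to 12.7). Alpha 2 was covered by 3 unigenes named 25 kDa subunit, with 58 and 9, 51 and 10, and 28 and 11 reads in prepupae and pupae. All 3 were called lower, and together they were 3.85-fold lower (2.58 to 5.93).

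Alpha 4 stood apart from the other alpha subunits. Its main unigene, Unigene131775_FOB, had 155 reads in prepupae and 68 in pupae (207 and 107.7 RPKM), 1.92-fold lower (1.44 to 2.60), just short of the rule at a log2 ratio of −0.94. A second, shallow unigene had 9 and 12 reads, an interval that includes no difference, and it is the 1 member called higher under TMM scaling and centring. Summed, alpha 4 was 1.73-fold lower (1.32 to 2.29). This interval was below those of alpha 1, 2, 5 and 6 and of the alpha 8-like unigene but overlapped that of alpha 3. The other 9 alpha unigenes with at least 10 reads were all called lower. Lower calls were thus 81.8% of the 11 alpha unigenes of that depth, against 39.4% of all filtered unigenes.

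Beta 3 and beta 2 had the largest differences of the beta subunits, and the others lay closer to the overall shift. Counting intervals do not fully separate them. The interval of beta 2 overlaps those of the others, and that of beta 3 overlaps those of beta 5 and of an unnumbered beta unigene. Beta 3 had 116 and 26 reads in Unigene58615_FOB (302 and 80.2 RPKM), 3.76-fold lower (2.44 to 6.002). A beta 2-like unigene had 109 and 32 reads (304.6 and 106 RPKM), 2.87-fold lower (1.92 to 4.41). These 2 were the only beta unigenes called lower, of 7 that passed the filter (28.6%, against 39.4% of all filtered unigenes). Beta 5, which carries the chymotrypsin-like cutting site, had 54 and 30 reads, 1.52-fold lower (0.954 to 2.46), and beta 4 had 44 and 27 reads, 1.37-fold lower (0.833 to 2.31). For both, counting error alone includes no difference.

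Beta 1 rested on 2 unigenes, with 33 and 19 and with 51 and 26 reads in prepupae and pupae, 1.58-fold lower in sum (1.08 to 2.31). The names beta 1 and beta 2 are used for different subunits in the human gene and in the ring numbering, so no cutting activity is assigned to them here. The beta unigene with the highest level, given without a number, had 110 and 52 reads (321 and 179.9 RPKM), 1.78-fold lower (1.27 to 2.53). One further core unigene, named only proteasome 2 subunit, had 65 and 32 reads, 1.71-fold lower (1.11 to 2.71). Beta 7 was seen by name only as 1 prepupal read.

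**Figure D2:**
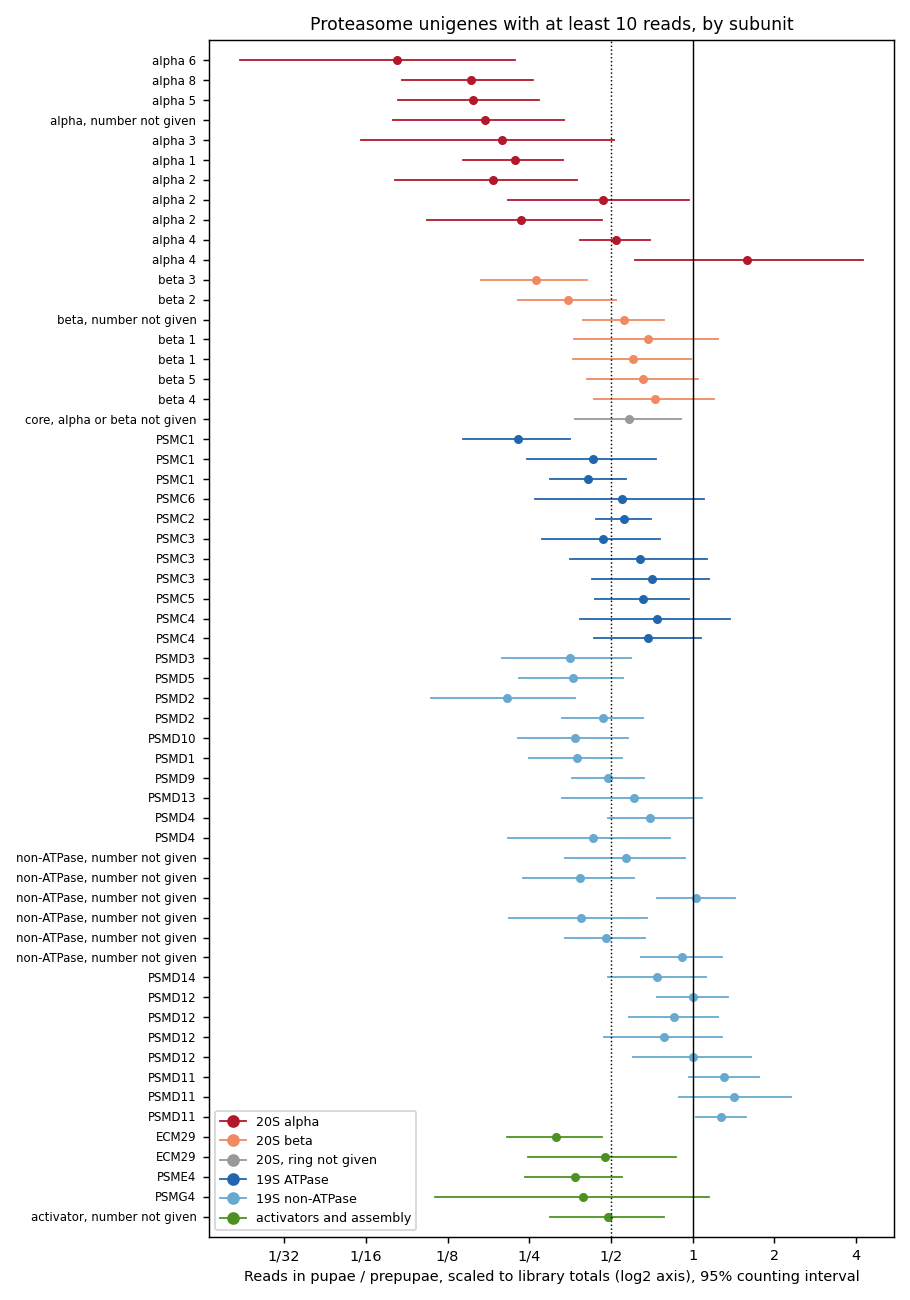
Reads in pupae relative to prepupae for the 59 proteasome unigenes with at least 10 reads, scaled to the library totals, on a log2 axis; points are the ratios, bars the exact 95% counting intervals, and colours the class. A solid line marks no difference and a dotted line 2-fold lower. Most alpha subunits lie left of the dotted line, beta and ATPase subunits mostly between the lines, and the PSMD12 and PSMD11 fragments near or right of the solid line.

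The ATPase ring of the 19S particle was lower by about the same factor as the beta ring. All 6 ATPases were found, by 11 unigenes with at least 10 reads, and together with 1 unigene of 1 read they held 910 and 387 reads, 1.98-fold lower (1.76 to 2.24). Called lower were 4 unigenes (36.4%, against 39.4% of all filtered unigenes) and called neither 7. Of the 4, 3 belonged to PSMC1 (Rpt2), the ATPase that in yeast helps to open the core's gate. Its fragments had 155 and 54, 130 and 25, and 55 and 20 reads in prepupae and pupae, and it was 2.90-fold lower in sum (2.31 to 3.66).

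The other ATPases lay closer to the overall shift and close to each other. PSMC2 (Rpt1) had the most reads of the ATPase unigenes, 234 in prepupae and 110 in pupae on the 786 bases of Unigene154014_FOB, 1.79-fold lower (1.43 to 2.27). PSMC6 (Rpt4) had 28 and 13 reads, 1.82-fold lower (0.911 to 3.82). PSMC3 (Rpt5) was 1.70-fold lower over 3 fragments (1.27 to 2.29), 1 of which was called. PSMC5 (Rpt6) had 76 and 42 reads, 1.53-fold lower (1.03 to 2.28), and the 2 fragments of PSMC4 (Rpt3) held 86 and 51, 1.42-fold lower (0.995 to 2.05). The interval of PSMC1 was above those of PSMC2, PSMC3, PSMC4 and PSMC5, and overlapped that of PSMC6.

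Non-ATPase subunits differed among themselves in size and direction. Their 25 unigenes held 1968 and 1136 reads, only 1.46-fold lower in sum (1.36 to 1.57). Called lower were 11 of the 24 that passed the filter, 45.8% against 39.4% of all filtered unigenes. PSMD11 (Rpn6) and PSMD12 (Rpn5), scaffold proteins of the lid that covers the ATPase ring, were not lower. The other 18 unigenes held 1419 and 616 reads, 1.94-fold lower (1.77 to 2.14); PSMD11 and PSMD12 were set aside after their values had been seen, which by itself raises this fold.

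PSMD11 joins the 19S particle to the core by touching an alpha subunit. It was covered by 3 unigenes, and each had more reads in pupae despite the smaller pupal library. Unigene143646_FOB had 169 reads in prepupae and 181 in pupae (170 and 216 RPKM), Unigene109909_FOB had 90 and 99 (161.7 and 210.9 RPKM), and Unigene111403_FOB had 35 and 42 (61.9 and 88.1 RPKM). Summed, PSMD11 was 1.30-fold higher in pupae (1.10 to 1.53). None of its 3 unigenes passed the 2-fold rule on the deposited scale. Under TMM scaling the sum was 1.71-fold higher, and after centring 1.82-fold.

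PSMD12 had 4 unigenes from matches in aphid, beetle and moth. Their reads were 102 and 86, 71 and 51, 44 and 29, and 38 and 32 in prepupae and pupae. In sum PSMD12 was at 0.920 of its prepupal level (0.761 to 1.11), an interval that includes no difference. In pupae the most abundant members by RPKM were therefore 2 PSMD11 unigenes, at 216 and 210.9, followed by the PSMD12 unigene Unigene102989_FOB, at 194.7 in pupae and 194.8 in prepupae. In prepupae the most abundant had been a PSMC1 unigene at 364 RPKM and the beta unigene at 321.

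Other lid subunits covered the range between. PSMD14 (Rpn11), the enzyme that cuts ubiquitin off the substrate, had 64 and 40 reads, 1.35-fold lower (0.895 to 2.06). PSMD13 (Rpn9) had 37 and 19 reads, 1.64-fold lower (0.921 to 3.02). PSMD3 (Rpn3), a scaffold of the lid like PSMD11 and PSMD12, had 64 and 19 reads, 2.84-fold lower (1.68 to 5.02), so lid scaffolds did not share 1 direction.

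The 2 large subunits at the base of the cap were both called lower. PSMD1 (Rpn2) had 114 and 36 reads, 2.67-fold lower (1.82 to 4.002). PSMD2 (Rpn1) was 2.73-fold lower over 2 fragments (2.05 to 3.68), although the fragments themselves gave 4.82-fold (2.71 to 9.21) and 2.14-fold (1.52 to 3.04). The fragment with the larger fold had its best match in salmon. The ubiquitin receptor PSMD4 (Rpn10) held 126 and 66 reads in 2 fragments, 1.61-fold lower (1.19 to 2.20), and 1 of these was called. PSMD6 (Rpn7) was seen only as 1 prepupal read.

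A set of 6 unigenes matched non-ATPase subunits of the body louse with no number. Of these 3 were called lower (50%, against 39.4% of all filtered unigenes), with folds between 2.08 and 2.60, and 3 were not. Those not called included Unigene121947_FOB, with 83 reads in prepupae and 72 in pupae, and Unigene95102_FOB, with 82 and 63, whose intervals include no difference. Which subunit they encode is not given by the match.

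All 5 activators and assembly factors were called lower, at log2 ratios between −1.65 and −1.01, against 39.4% of all filtered unigenes called lower. Together they held 349 and 113 reads, 2.61-fold lower (2.10 to 3.25). ECM29, a large adaptor that holds the core and its cap together in yeast, had 125 and 33 reads in 1 unigene and 40 and 16 in another, matched to zebrafish. In sum ECM29 was 2.84-fold lower (2.05 to 3.99). Activator complex subunit 4 (PSME4, PA200), a cap that can replace the 19S particle and is known for work in the nucleus and in sperm of mammals, had 106 and 33 reads, 2.71-fold lower (1.82 to 4.14). An activator subunit with no number, matched to a tick, had 63 and 26 reads, 2.04-fold lower (1.28 to 3.36). Assembly chaperone 4, which helps to build the alpha ring, had 15 and 5 reads, and its interval of 0.874 to 8.90 includes no difference. Several of these lay just past the rule, and 2 of the 5 were still called lower under TMM scaling and 1 after centring.

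Proteins counted above as non-ATPase subunits by name, but known from yeast and mammals as chaperones that build the 19S base and leave it, were lower too. PSMD5 had 95 and 29 reads, 2.76-fold lower (1.81 to 4.35). PSMD10, also named gankyrin, had 84 and 26, 2.73-fold lower (1.74 to 4.41), and PSMD9 (p27) had 155 and 64, 2.04-fold lower (1.52 to 2.78). All 3 were called lower. Counting them as assembly factors gave 8 of 8 lower, against 39.4% of all filtered unigenes, and 2.48-fold for the sum (2.14 to 2.89).

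**Figure D3:**
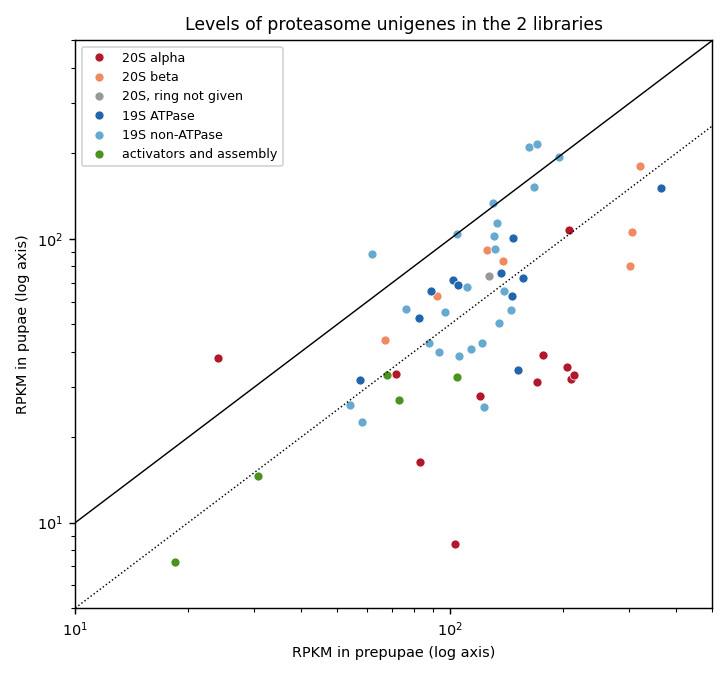
RPKM in pupae (y axis) against RPKM in prepupae (x axis) for the 59 members with at least 10 reads, both axes logarithmic, coloured by class; the solid line marks equal levels and the dotted line 2-fold lower in pupae. Alpha subunits form a group near 30 RPKM in pupae at prepupal levels of up to 213, while PSMD11 unigenes lie above the line of equal levels.

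Fragments of 1 subunit could be compared with each other, although they share the libraries. Of the numbered or named subunits, 11 had at least 2 fragments of 10 or more reads. The direction of all fragments, taken as the sign of the ratio and not as a call, was the same for several subunits. These were PSMD11 (3 of 3 higher in pupae), PSMC1 (3 of 3 lower), alpha 2 (3 of 3 lower), PSMC3 (3 of 3 lower) and ECM29 (2 of 2 lower). By the 2-fold rule none of the PSMD11 fragments and 1 of the PSMC3 fragments was called. Only for alpha 4 did fragments point in opposite directions, and there the second had few reads. Across the 59 deeper members Spearman's rho between RPKM in prepupae and RPKM in pupae was 0.524, a description across unigenes that share their libraries.

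The submitters' Gene Ontology component terms, which the choice of members did not use, placed 39 of the 69 members in a proteasome complex or particle, and 14 had no component term. All 13 members with the term for the core complex were in the 20S class. A further 13 unigenes carried such a term but no matching word in their protein name. The 9 of them with at least 10 reads summed to 796 and 339 reads, 1.98-fold lower (1.74 to 2.26). Of these 9, 5 were called lower (55.6%, against 39.4% of all filtered unigenes) and none higher. Unigenes that name the same subunits in another way, chosen after the values had been seen, were 5, of which 3 were called lower and 2 neither. They are not a separate set: those named Rpn11, RPN2 and 26S subunit ATPase 1 were also among the 9 above. A unigene named Rpn11 had 63 and 39 reads, 1.36-fold lower (0.900 to 2.09), beside 1.35-fold for PSMD14. Unigenes named Rpn2 (117 and 32 reads) and RPN2 (85 and 15 reads) were 3.08-fold (2.07 to 4.71) and 4.78-fold lower (2.74 to 8.91), beside 2.67-fold for PSMD1. A unigene named as 26S subunit ATPase 1, another name for PSMC1, had 70 and 26 reads, 2.27-fold lower (1.43 to 3.71). The fifth, named PSMD3, had 21 and 13 reads, 1.36-fold lower (0.651 to 2.96), an interval that includes no difference and overlaps that of the member PSMD3 at 2.84-fold.

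Upstream of the proteasome, the enzymes that tag and deliver substrates were called in both directions. The 7 lists of the ubiquitin pathway matched 369 unigenes. Of the 367 that passed the filter 155 were lower, 36 higher and 176 neither, with a median log2 ratio of −0.72. Lower calls were thus 42.2% of the lists, close to the 39.4% among all filtered unigenes, and the shares of E2 and E3 unigenes given next, 40% and 37.7%, were close to it too. Their summed reads were 1.22-fold lower (1.19 to 1.25) as deposited, and turned to higher in pupae under TMM scaling (1.08-fold) and centring (1.15-fold). Ubiquitin-activating enzymes (E1), which start the cascade, had 7 of 11 lower and none higher, and 2.17-fold fewer reads in sum (1.83 to 2.58), although their 3 deepest unigenes, at 1.08-fold, 1.31-fold and 1.89-fold lower, were called neither. Conjugating enzymes (E2) had 10 of 25 lower and 2 higher, and their sum was 1.21-fold lower (1.10 to 1.33). Ligases (E3), which choose the substrates, were the largest list, with 84 of 223 lower and 25 higher, and their sum was 1.06-fold lower (1.04 to 1.09).

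Some deep unigenes for tagging enzymes were higher in pupae, among them the 3 deepest of the ligases. An E2 named E2 H went from 17 prepupal to 120 pupal reads, 8.37-fold higher (5.01 to 14.8), while the 2 deepest E2 unigenes, with 141 and 98 and with 84 and 90 reads, were called neither. The ligase unigene named F-box/LRR-repeat protein 2, a substrate adaptor of cullin ligases, had 88 and 414 reads, 5.58-fold higher (4.42 to 7.10). A hect ligase had 272 and 479, 2.09-fold higher (1.79 to 2.43), and SMAD specific ligase 2 had 160 and 310, 2.30-fold higher (1.89 to 2.80). No member of the proteasome was called higher on the same scale.

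Among factors that bring substrates to the proteasome, shuttles and the unfolding segregase, 8 of 12 unigenes were called lower, none higher and 4 neither. Lower calls were thus 66.7% of this list, against 39.4% of all filtered unigenes. The list had 2.25-fold fewer reads in sum (1.95 to 2.59). Ubiquilin, a shuttle that carries tagged proteins, had 147 and 49 reads in its deepest unigene, 2.53-fold lower (1.82 to 3.57), and 78 and 43 in another, 1.53-fold lower (1.04 to 2.27) and called neither. A ubiquitin fusion-degradation protein, the second deepest of the list, had 115 and 70 reads, 1.39-fold lower (1.02 to 1.89) and called neither. The COP9 signalosome, a relative of the proteasome lid that regulates cullin ligases, had 11 of 17 lower (64.7%) and none higher, and was 2.71-fold lower in sum (2.38 to 3.08). Subunit 6, its deepest unigene, had 200 and 93 reads, 1.81-fold lower (1.41 to 2.35) and called neither. Subunit 3 had 105 and 31 reads, 2.86-fold lower (1.90 to 4.41), and a subunit with no number 96 and 17, 4.76-fold lower (2.83 to 8.51). The list meant for ubiquitin itself matched 7 unigenes, mostly other enzymes whose names begin with the same letters, and held 402 and 166 reads. Of these reads, 218 and 20 belonged to a unigene of the deubiquitinase UCH-L5. The rest of the list was mixed too. Only 1 of the 7 unigenes was a polyubiquitin, with 8 and 2 reads in prepupae and pupae.

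Deubiquitinases, which remove or trim the tag, had 33 of 72 unigenes lower and 8 higher, and 1.35-fold fewer reads in sum (1.29 to 1.42). Lower calls were 45.8% of this list, against 39.4% of all filtered unigenes. The deepest, a carboxyl-terminal hydrolase with no number, had 113 and 294 reads, 3.08-fold higher in pupae (2.47 to 3.87), and ubiquitin specific protease 34 had 169 and 111, 1.28-fold lower (1.005 to 1.65) and called neither. Those known to work on the proteasome itself, UCH-L5 and USP14, were looked up after the values had been seen. UCH-L5, which docks on the 19S cap and edits ubiquitin chains, had 218 reads in prepupae and 20 in pupae in Unigene152888_FOB, 9.19-fold lower (5.81 to 15.4). By the wording of its name this unigene fell in the list meant for ubiquitin, and it is not among the 72. The second UCH-L5 unigene had 74 and 4 reads, 15.6-fold lower (5.85 to 58.8). USP14, the other enzyme that docks there, had 190 and 60 reads in 1 unigene, 2.67-fold lower (1.99 to 3.63), and 96 and 27 in another, at 0.333 of its prepupal level (0.209 to 0.516). The folds of UCH-L5 were thus in the range of that of alpha 6, and those of USP14 near those of PSMD1 and PSMD2. Cap-n-collar, a transcription factor known in the fly to switch on proteasome genes under stress, was also looked up afterwards. Its 2 unigenes had 78 and 89 and 55 and 60 reads, 1.33-fold higher in sum (1.04 to 1.69). Both were called neither, and the interval of each alone includes no difference (0.987 to 1.86 and 0.882 to 1.90).

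The TCP-1 chaperonin, another barrel of related subunits that folds proteins and does not degrade them, was chosen afterwards for comparison. Its 19 unigenes held 1246 and 353 reads, 2.98-fold lower (2.64 to 3.36). Of the 17 that passed the filter, 11 were lower (64.7%, against 39.4% of all filtered unigenes) and none higher, with a median log2 ratio of −1.49. The sum of the chaperonin lay between those of the alpha and the beta subunits, and its interval overlapped that of the alpha subunits.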

How the data were processed

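RNA of 1 prepupal and 1 pupal library of whole male insects was sequenced with Illumina protocols, per the labels. Per the file headers, the deposited tables hold, by unigene, a count of reads assigned to it alone, a length, the percent of that length covered and an RPKM. Counts summed to the header totals, and the deposited RPKM equalled the recomputed value for 100% of entries within a relative tolerance of 1e-06. No source used here names the assembler or aligner. Reads assigned to several unigenes were not counted, so near-identical copies may have lost reads; strand is not stated.

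Tables were joined on the identifier, and a missing unigene was given 0 reads. Members, lists and classes were chosen with earlier results of these data known; class wording was completed after the names were read. All members may be named, with values for those of at least 10 reads, and the 3 deepest unigenes of each pathway list. Folds are ratios of scaled reads with Clopper-Pearson intervals (scipy 1.17.1); no fold is given where both libraries had at most 3 reads. TMM factors came from edgeR 4.0.16. The calls were checked on simulated reads. The files used here hold no sequences.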

Additional observations from a re-analysis of the deposited data

How the results depend on the processing

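Scaling moved the size of the difference and the number of calls, and no member or class that was called lower turned to higher. The sum over all members was 1.90-fold lower as deposited, 1.44-fold with TMM scaling and 1.35-fold after centring, and 2.01-fold as deposited without the member with the most reads, a PSMD11 unigene. Median log2 ratios of all members were −0.64 and −0.54, with 19 of 60 and 15 of 61 lower and 1 higher in each, a 20S unigene. By class the sums under TMM scaling and centring were 2.13 and 1.99 times lower for the 20S core, 1.51 and 1.41 for the ATPases, 1.11 and 1.04 for the non-ATPase subunits, and 1.98 and 1.85 for activators and assembly factors. Calls of lower were then 11 of 20 and 12 of 21 in the 20S core (medians −1.31 and −1.19), against 33.4% and 31.3% of all unigenes. They were 1 of 11 ATPases under each (medians −0.44 and −0.34), 5 and 1 of 24 non-ATPase subunits, and 2 and 1 of 5 activators (medians −0.87 and −0.74). The non-ATPase sum was 1.59 without its deepest member, the same PSMD11 unigene, and 1.36 (chosen after seeing the data) with PSMD5, PSMD9 and PSMD10 as assembly factors, which then had 8 calls; without non-insect matches the activators had 3. A pseudocount of 5 left 2 activators lower (median −0.93). Among unigenes of at least 500 bases, a set of few members, calls of lower were 5 of 6 members. By class they were 0 of 1 ATPase, 2 of 2 non-ATPase subunits and 3 of 3 activators. No share over all unigenes of that length was computed. Summing fragments left 1 ATPase lower. Ubiquitin pathway lists had medians of −0.54 (79 of 225 lower) at 50 reads or more, −0.32 with TMM scaling and −0.23 after centring (99 of 367 lower, 68 higher). At 500 bases or more 47 of 121 were lower and 14 higher, and summed reads were 0.926 and 0.867 times lower under the scalings. The cause of these moves was not tested. Of 191 comparisons with alternatives 141 stayed within the limits, among them the 20S calls of lower and the 20S medians under both scalings. No match fell outside the classes, so that alternative gave no value. No paired analysis was possible because each stage has 1 library. With 4 to 28 pupal reads in the 9 alpha unigenes called lower with at least 10 reads, depth limits the order within that ring.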

Other observations

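Of all unigenes, 43 had their best match in salmon or trout (Salmo or Oncorhynchus). Reads were found in prepupae alone for 17 of these, in pupae alone for 0 and in both libraries for 26. Of all 120710 unigenes, 106752 had reads in prepupae and 94524 in pupae, so absence from pupae was generally more common. Among the 10 proteasome unigenes with 1 or 2 prepupal reads and none in pupae, 4 had a match in salmon or trout. The source of these reads was not tested.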
